A study of Mus musculus with 40 samples.

Results

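The genes described here license DNA for replication and bring cells into S phase. They are 10 of the 35976 genes in the count table and were chosen by symbol: the helicase subunits Mcm2, Mcm3, Mcm4, Mcm5, Mcm6 and Mcm7, the helicase loaders Cdc6 and Cdt1, the sliding clamp Pcna and the cyclin Ccne1. All 10 symbols were found, and all 10 passed the filter on low counts in each of the 15 contrasts tested. The fewest reads behind any level were 24, for Ccne1 in the library LT-HSC WT 2.

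The study asked which cell-intrinsic factors loss of Dnmt3a, a DNA methyltransferase, acts through in blood stem and progenitor cells of the mouse, and combined it with loss of Sting, the adaptor of cytosolic DNA sensing, whose gene is Tmem173 in the count table. RNA came from bone marrow, a modified SMART-Seq2 protocol amplified it, and 32 of the 40 libraries had a usable column of gene counts. Short-term stem cells of both genotypes (4 and 4 libraries) were not analysed here, because the 8 columns left all carry the names of the 4 WT libraries, each name used more than once. Sorted long-term haematopoietic stem cells (LT-HSC) gave 4 wild-type (WT) and 4 Dnmt3a knockout (KO) libraries, common myeloid and granulocyte-macrophage progenitors sorted together (CMP/GMP) 4 and 4, and megakaryocyte-erythroid progenitors (MEP) 3 and 4. Bone marrow cells carrying c-kit, a mixed progenitor fraction, gave 2 WT, 2 Dnmt3a KO, 2 Sting KO and 3 Dnmt3a/Sting double knockout (DKO) libraries. The Dnmt3a knockout is Dnmt3af/f with Mx1-Cre, in which interferon switches on the promoter of the recombinase. The induction, the Cre status of WT and Sting KO mice, their age and the number of mice per library are details not given in the sources used here. The labels name no animals, so the p-values measure the spread between libraries, which may be technical.

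Replication origins are licensed in G1, when the origin recognition complex and CDC6 bind DNA and CDT1 brings in the MCM complex, a ring of 6 different subunits that is loaded in pairs and waits inactive until S phase. Cyclin E with CDK2 drives entry into S phase, where the MCM ring becomes the core of the helicase and PCNA, a ring around DNA, tethers the polymerases and serves as the platform on which CDT1 is degraded. The genes are classical targets of E2F transcription factors, which the retinoblastoma proteins hold in check in resting cells. Most long-term stem cells in adult marrow rest outside the cell cycle, while the progenitors below them divide often.

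Depth and library identity bear on the values that follow. Depth in M (1000000 reads) was 16.9 to 45.8 in LT-HSC, 33.2 to 47.7 in CMP/GMP, 3.44 to 36.0 in MEP, where MEP Dnmt3a KO 2 is the shallowest, and 27.4 to 40.0 in c-kit+ cells. Levels are CPM, reads of a gene per M reads of the library, after TMM scaling over the 32 libraries. In c-kit+ cells Dnmt3a stood at 82.1 to 90.6 CPM in WT and 47.9 to 49.3 in Dnmt3a KO, and Tmem173 at 55.1 to 66.8 CPM in WT and 10.1 to 10.7 in Sting KO. In the sorted cells the check was less clear. All 4 CMP/GMP KO libraries (16.6 to 33.6 CPM) lay below the WT libraries (50.3 to 82.4), but the library labelled LT-HSC Dnmt3a KO 3 held 103.7 CPM of Dnmt3a against 69.8 to 216.8 in WT, and the library labelled MEP Dnmt3a KO 2 held 43.8 against 29.2 to 50.2. These counts sum all exons, and the sources used here do not state which exons the floxed allele removes. Stem-cell markers (8 genes) summed to 1001 to 2102 CPM in LT-HSC against 39.7 to 295 in the other sorted libraries, and MEP markers (8 genes) to 8181 to 16310 CPM in MEP against 1184 to 2969 elsewhere. LT-HSC WT 1 stood apart with 3443 CPM of granulocyte-macrophage markers, where the other WT LT-HSC libraries held 326 to 447. Among MEP KO libraries, numbers 1 and 2 held 1312 and 3025 CPM of the same list and numbers 3 and 4 held 69.7 and 81.4. Numbers 3 and 4 were also unusually alike, with a correlation of log2 levels across genes of 0.988, as were CMP/GMP WT 2 and 4 (0.985). Other MEP KO pairs correlated at 0.524 to 0.576 and other CMP/GMP WT pairs at 0.796 to 0.849. Pairs of LT-HSC libraries, the baseline of the population contrasts, were less alike than those of CMP/GMP, at 0.439 to 0.601 in WT and 0.468 to 0.663 in KO. Both close pairs differed by more than sampling noise, but so did every pair of libraries within a group. That check cannot tell a repeat of 1 sample from another animal, and the libraries were kept separate. CMP/GMP WT 4 carries Y transcripts, as does number 2, whereas the other sorted libraries numbered 4 carry Xist.

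The stretches of sequence shown next are the parts of the promoters in which the letters of an E2F site were found, because E2F control is the textbook link between these genes. They come from RefSeq promoter windows of GRCm38.p6 that run from 250 bases before to 50 bases after a gene's start, which exist here for 9 of the 10 genes (not for Mcm4). The spellings TTTCCCGC, TTTCGCGC, TTTGCCGC and TTTGGCGC were searched on both strands, and capitals mark the matches. Capitals that run past 8 letters are matches on opposite strands that overlap. All sequences read 5′ to 3′ on the gene's strand.
Mcm3, chr1:20820265-20820294, minus strand: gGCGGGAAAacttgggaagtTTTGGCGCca
Mcm5, chr8:75109336-75109387, plus strand: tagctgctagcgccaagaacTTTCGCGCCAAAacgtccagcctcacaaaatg
Mcm6, chr1:128359725-128359835, minus strand: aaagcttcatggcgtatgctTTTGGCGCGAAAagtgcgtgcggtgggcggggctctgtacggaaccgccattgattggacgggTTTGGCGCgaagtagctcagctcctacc
Mcm7, upstream match, chr5:138172030-138172059, minus strand: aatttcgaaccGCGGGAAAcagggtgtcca
Mcm7, downstream match, chr5:138171849-138171878, minus strand: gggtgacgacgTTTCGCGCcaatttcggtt
Cdc6, chr11:98907993-98908040, plus strand: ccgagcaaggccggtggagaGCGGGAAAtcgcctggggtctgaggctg
Cdt1, chr8:122568035-122568064, plus strand: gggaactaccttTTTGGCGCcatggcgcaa

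For contrast, stretches upstream of the start of Mcm2 (bases -80 to -1 from the RefSeq start) and of Ccne1 (bases -124 to -45) are shown, since neither window held these letters.
Mcm2, chr6:88898781-88898860, minus strand: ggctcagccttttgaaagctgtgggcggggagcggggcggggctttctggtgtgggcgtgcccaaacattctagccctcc
Ccne1, chr7:38107535-38107614, minus strand: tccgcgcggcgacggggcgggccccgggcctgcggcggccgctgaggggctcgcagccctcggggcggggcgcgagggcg

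The E2F letters were present in the windows of 6 of the 9 genes with an entry, against 744 of 32851 RefSeq windows of the same length (2.26%). Mcm6 held 3 matches, at bases -110, -106 and -47 from the start, Mcm3, Mcm5 and Mcm7 held 2 each, and Cdc6 and Cdt1 held 1 each. Mcm2, Pcna and Ccne1 held none, which says only that these letters are not in these windows. The CCAAT box letters, searched on both strands, were present for Mcm2, Mcm3, Mcm5, Mcm6, Mcm7 and Pcna, against 37.4% of all windows, and were not found in those of Cdc6, Cdt1 and Ccne1. The Ccne1 window had the highest GC content of the 10 member windows (76%) and the Mcm3 window the lowest (48.7%).

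**Figure D1:**
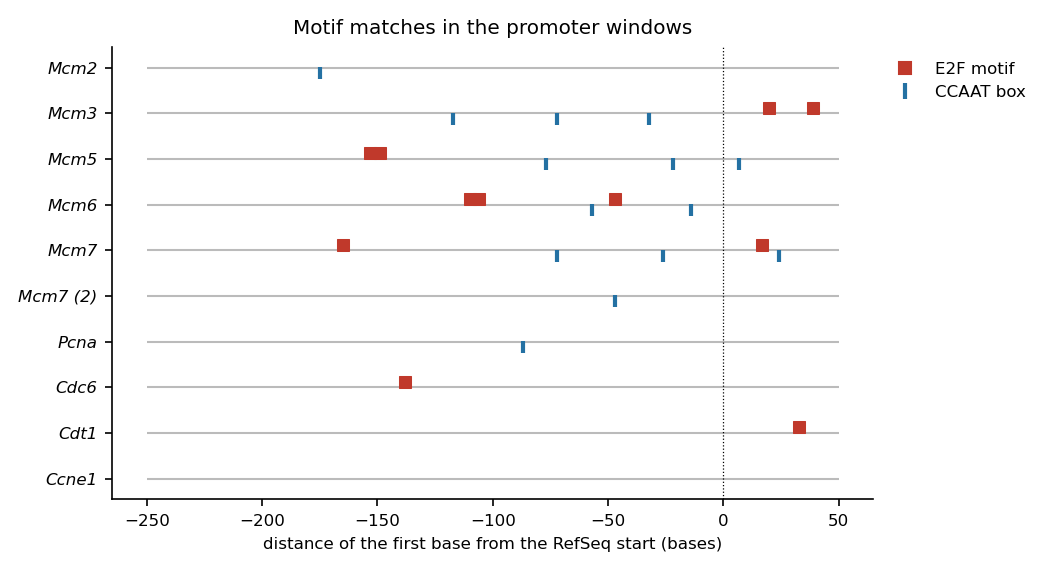
Matches to the E2F letters and to CCAAT in the promoter windows of the licensing genes, plotted by distance in bases from the start of the gene. Of the E2F matches, 3 lie in Mcm6, 2 each in Mcm3, Mcm5 and Mcm7, and 1 each in Cdc6 and Cdt1.

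Transcripts of the MCM helicase were scarcest in WT LT-HSC and most abundant in WT CMP/GMP. The geometric mean of the 6 subunits was 212 ± 57.7 CPM (SD, n = 4) in WT LT-HSC, 606 ± 81.7 (n = 4) in WT CMP/GMP, 490.2 ± 80.6 (n = 3) in WT MEP and 459.9 ± 19.4 (n = 2) in WT c-kit+ cells. For each of the 6 subunits WT LT-HSC had the lowest mean of the 10 groups and WT CMP/GMP the highest. Every CMP/GMP WT library lay above every LT-HSC WT library for each subunit.

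Mcm6, which sits next to MCM2 in the ring, showed the widest step of the 6 subunits between stem cells and progenitors. It stood at 253.7, 373, 248 and 253 CPM in the 4 WT LT-HSC libraries and at 909, 1071, 1015 and 1189 in the 4 WT CMP/GMP libraries. The 3 WT MEP libraries held 597, 927 and 749.5 CPM, above all LT-HSC and overlapping the lowest CMP/GMP library. In the quasi-likelihood test of edgeR, Benjamini-Hochberg adjusted over all genes tested, Mcm6 was higher by 1.90 on the log2 scale in CMP/GMP than in LT-HSC (SE 0.268, adjusted p = 0.000325) and by 1.45 in MEP (SE 0.279, adjusted p = 0.00271). It was also the most abundant subunit per kilobase of exon in WT CMP/GMP, at 224 CPM per kb.

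Mcm4, which with MCM6 and MCM7 forms the catalytic core of the ring, held 113 to 176 CPM in WT LT-HSC, 376 to 484 in WT CMP/GMP and 242 to 397 in WT MEP. Its log2 differences from LT-HSC were 1.64 (adjusted p = 0.000694) and 1.19 (adjusted p = 0.00775). Mcm7 held 214, 399.8, 112 and 243 CPM in WT LT-HSC, a wider spread than the 597 to 782 CPM of CMP/GMP and the 463.5 to 695 of MEP. The differences for Mcm7 were 1.48 (adjusted p = 0.0112) and 1.30 (adjusted p = 0.0237). Reads of Mcm7 may include some from genes it overlaps, Cops6 and Ap4m1 and the microRNA genes Mir25, Mir93 and Mir106b, and the sources used here do not state the strand setting of the counting.

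Mcm2, Mcm3 and Mcm5 complete the ring, and MCM2 and MCM5 form the gate through which it opens onto DNA. Mcm2 stood at 197, 245, 134 and 167 CPM in WT LT-HSC, 421, 552, 499 and 659 in WT CMP/GMP and 490.2, 501 and 476 in WT MEP. Mcm2 was higher by 1.52 in CMP/GMP (adjusted p = 0.0119) and by 1.42 in MEP (adjusted p = 0.0177). Mcm5 went from 133 to 251 CPM in WT LT-HSC to 487.5 to 696 in CMP/GMP and 442 to 556 in MEP, differences of 1.5 (adjusted p = 0.00351) and 1.33 (adjusted p = 0.00654). Mcm3 differed least of the 6: WT LT-HSC held 165 to 388 CPM, CMP/GMP 456 to 670.0 and MEP 389 to 529.6. Its difference of 1.0 in CMP/GMP passed the test (adjusted p = 0.0390) and that of 0.64 in MEP did not (adjusted p = 0.175).

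The make-up of the helicase transcripts had different mean values in WT LT-HSC and WT CMP/GMP. Of the summed level of the 6 subunits per kilobase, Mcm3 made up 25.6% ± 6.46 (SD, n = 4) in WT LT-HSC and 18.1% ± 2.20 (n = 4) in WT CMP/GMP. The Mcm3 shares overlapped, at 17.05 to 31.8% and 16.1 to 21.2%. Mcm6 made up 19.99% and 26.1% ± 0.728, and its shares did not overlap, at 17.9 to 22.1% and 25.1 to 26.85%. In WT MEP Mcm3 made up 17.4% and Mcm6 23.4%, with the lowest Mcm6 share (21.9%) inside the WT LT-HSC range. Mcm2 took the smallest share in each of the 10 groups, from 6.51% in LT-HSC KO to 10.4% in WT MEP. That rank depends on the length used, which counts all annotated exons of a gene: 6956 bases for Mcm2 and 3589 to 4666 for the other subunits. In CPM without length Mcm2 stood above Mcm4 in WT LT-HSC (185.8 against 133.6) and WT CMP/GMP (532.9 against 415.3). These shares were not tested.

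The loaders too were more abundant in progenitors, and among the WT sorted cells their means were highest in MEP. Cdc6, the ATPase that recruits the ring to the origin, held 25.5, 54.9, 22.9 and 18.7 CPM in WT LT-HSC, 90.8, 80.5, 127.5 and 96.9 in WT CMP/GMP and 99.4, 127 and 172 in WT MEP. No progenitor library overlapped the stem cells. Cdc6 was higher by 1.70 in CMP/GMP (SE 0.346, adjusted p = 0.00732) and by 2.14 in MEP (SE 0.366, adjusted p = 0.00101).

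Cdt1, the partner that escorts the ring to CDC6 and is held back by geminin, was called in MEP but not in CMP/GMP. It stood at 104, 95.7, 71.0 and 67.2 CPM in WT LT-HSC and at 138, 99.2, 225.5 and 120.0 in WT CMP/GMP, so that the groups overlapped, and at 208, 218 and 173 in WT MEP, which did not overlap LT-HSC. The log2 difference was 0.79 in CMP/GMP (adjusted p = 0.160) and 1.26 in MEP (SE 0.343, adjusted p = 0.0283). Relative to the helicase, Cdt1 was at 32.7 to 49.1% of the MCM geometric mean in WT LT-HSC, 16.5 to 39.1% in CMP/GMP and 36.9 to 49.2% in MEP, and Cdc6 at 10.2 to 18.8%, 13.4 to 22.1% and 21.9 to 36.7%.

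Pcna had smaller estimates than most of the helicase genes. It held 218, 245, 155 and 157 CPM in WT LT-HSC, 366, 352, 304 and 286 in WT CMP/GMP and 250.3, 259 and 269.7 in WT MEP. The LT-HSC libraries lay below all progenitor libraries, but the differences of 0.76 in CMP/GMP (SE 0.250, adjusted p = 0.0910) and 0.44 in MEP (SE 0.267, adjusted p = 0.318) did not pass the test. Relative to the MCM mean, Pcna was at 83.8 to 103% in WT LT-HSC, 39.8 to 69.4% in CMP/GMP and 44.8 to 59.3% in MEP. Pcna has near-identical pseudogene copies in the mouse genome, so its level is uncertain by whatever share of reads the counting gave to them.

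Ccne1, the cyclin whose kinase fires the start of S phase, had the lowest mean of the 10 genes per kilobase of exon in each WT population. It stood at 4.99, 0.688, 10.7 and 3.53 CPM in WT LT-HSC, 8.66, 11.6, 11.1 and 10.7 in WT CMP/GMP and 26.1, 21.7 and 25.1 in WT MEP. MEP lay above both other populations in all libraries. The differences from LT-HSC were 1.09 in CMP/GMP (SE 0.763, adjusted p = 0.444) and 2.32 in MEP (SE 0.825, adjusted p = 0.0945).

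Over the members as a group, 7 of 10 were called higher in WT CMP/GMP than in LT-HSC at an adjusted p under 0.05 (edgeR), against 1.7% of all genes tested, and the median log2 difference was 1.49. In WT MEP against LT-HSC again 7 of 10 were called higher, against 2.58% of genes, with a median of 1.31. DESeq2 called 7 and 8 members in these contrasts, where it called 11.2% and 16.3% of genes in either direction, and limma-voom with quality weights 8 and 7, where it called 24.2% and 18.6%. The median of all genes in these contrasts was -0.11 and -0.19. Without a scaling factor, on library totals alone, the all-gene medians moved to -0.27 and -0.38 and the share of called genes that were higher moved from 47.9% to 29.6% (35.9% with RLE factors) and from 43% to 27.9%, while the members' medians were 1.33 and 1.12 and all 10 remained positive. By library, 8 of 10 members had every CMP/GMP WT library above every LT-HSC WT library, against 7.99% of 18518 genes, and all 10 had every MEP WT library above them, against 9.88%. The call of Mcm3 in CMP/GMP ended on leaving out any of 7 libraries (LT-HSC WT 3 or 4, CMP/GMP WT 2, 3 or 4, CMP/GMP Dnmt3a KO 2 or MEP WT 4), with adjusted p between 0.0514 and 0.123. Without LT-HSC WT 1 and LT-HSC KO 2 together 7 members were called in each contrast, and with CMP/GMP WT 2 and 4 and MEP KO 3 and 4 summed as pairs 6 in CMP/GMP and 7 in MEP. Calls in MEP fell to 3 without MEP WT 3 and to 4 without MEP WT 4, LT-HSC WT 3 or LT-HSC WT 4.

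Between WT MEP and WT CMP/GMP edgeR called none of the 10 members, against 1.41% of genes. Of the members 0 had an unadjusted p under 0.05, against 12.9% of genes. DESeq2 called 0 members and 7.08% of genes, and limma-voom 4 members and 23.7% of genes. Those 4 were Mcm4 (-0.59 on the log2 scale) and Mcm6 (-0.54), lower in MEP, and Cdc6 (0.62) and Cdt1 (0.80), higher in MEP, with adjusted p from 0.00460 to 0.0208. In edgeR's fit the same genes stood at -0.45, -0.45, 0.44 and 0.47, with 95% intervals that included 0.

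**Figure D2:**
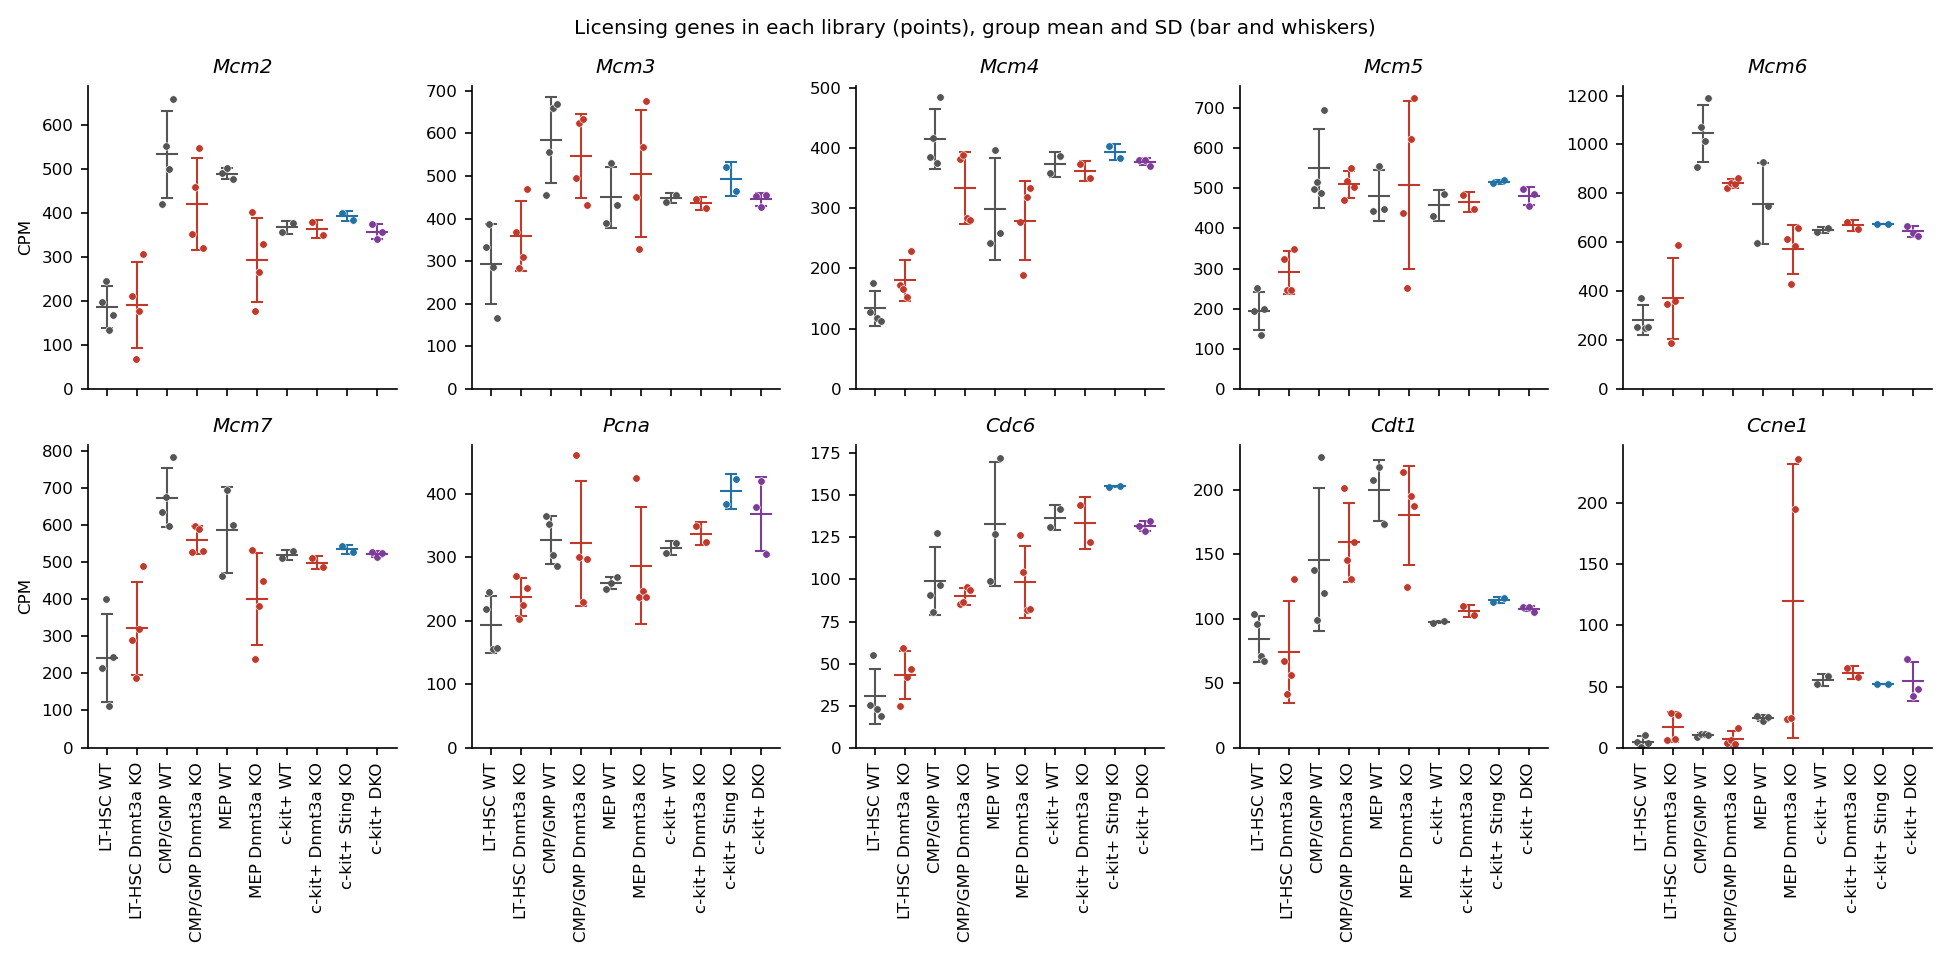
Level of each licensing gene in CPM (linear axis) in the 32 libraries, by group, with each point a library, the bar the group mean and the whiskers the SD. The LT-HSC groups have the lowest means for the MCM genes and Cdc6, although some LT-HSC KO libraries overlap other groups. The c-kit+ libraries lie close together, and MEP Dnmt3a KO 3 and 4 stand out for Ccne1 at 195.7 and 236 CPM.

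Among Dnmt3a KO cells fewer of the same steps passed the test. CMP/GMP KO exceeded LT-HSC KO by a median of 0.87 over the members, where all genes had a median of -0.10 (0.70 and -0.27 on library totals, which moved the share of called genes that were higher from 49.1% to 31.7%, against 39.6% with RLE factors). Only Mcm6 was called (1.20, SE 0.263, adjusted p = 0.0212), 1 of 10 against 0.818% of genes. Its values were 348, 187, 358 and 587 CPM in LT-HSC KO and 822, 841, 837 and 864 in CMP/GMP KO. Mcm4 (0.90, adjusted p = 0.0582), Mcm2 (1.16, adjusted p = 0.0721) and Cdt1 (1.12, adjusted p = 0.0730) did not pass in edgeR. Of the members 8 of 10 had an unadjusted p under 0.05, against 19.9% of genes. DESeq2 and limma-voom each called 6, where they called 9.38% and 10.3% of genes. In 6 members every CMP/GMP KO library lay above every LT-HSC KO library, against 7.68% of genes: Mcm2, Mcm4, Mcm5, Mcm6, Mcm7 and Cdc6. Calls went to 0 without LT-HSC KO 2, LT-HSC KO 3 or CMP/GMP KO 4, to 2 without LT-HSC WT 1, to 3 without LT-HSC KO 4, to 4 without MEP KO 1 and to 5 without MEP KO 2. This contrast rests in part on the library labelled LT-HSC Dnmt3a KO 3, whose Dnmt3a level was in the WT range. Whether these steps differ between the genotypes was tested as a difference of the Dnmt3a effect between populations, given with the genotypes, and no member was called.

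MEP KO exceeded LT-HSC KO in Cdt1, Cdc6, Mcm5 and Ccne1, 4 of 10 called higher against 5.74% of genes, with a median over the members of 0.67. Cdt1 stood at 67.1, 41.9, 56.6 and 131 CPM in LT-HSC KO and at 214, 125, 195 and 187 in MEP KO (1.32, SE 0.325, adjusted p = 0.00919). Cdc6 stood at 24.6, 59.5, 42.2 and 46.7 CPM in LT-HSC KO and at 126, 104, 81.6 and 82.3 in MEP KO (1.22, SE 0.341, adjusted p = 0.0198), and was the 1 member of 10 whose groups did not overlap, against 3.66% of genes. Mcm5 was higher by 0.85 (SE 0.270, adjusted p = 0.0395), and the other 5 MCM genes by 0.35 to 0.67 with adjusted p from 0.0686. DESeq2 called 5 members and 24.8% of genes, and limma-voom 7 members and 52.4% of genes. On library totals the all-gene median moved from -0.19 to -0.52, the share of calls that were higher from 44.3% to 22.7%, the members' median to 0.30, and 1 member stayed called, Ccne1. Without LT-HSC KO 1 the calls fell to 1, without LT-HSC KO 3, MEP KO 3 or MEP KO 4 to 2, and without MEP KO 2 they rose to 6. Without LT-HSC WT 1 and LT-HSC KO 2 together 3 were called. Without MEP KO 3 and 4 together 1 was called, and Mcm5 stood at 0.28 (edgeR, adjusted p = 0.603) and Ccne1 at 0.51. With only the 2 groups compared 0 were called.

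Ccne1 in MEP KO was divided between libraries. The 4 libraries held 23.4, 24.3, 195.7 and 236 CPM, where the 3 WT libraries held 21.7 to 26.1. Numbers 1 and 2 thus lay within the WT range and numbers 3 and 4 at 195.7 CPM or more, above the other 30 libraries read here, of which the highest was a c-kit+ DKO library at 72.5 CPM. Relative to the MCM mean, Ccne1 was at 5.33% and 9.50% in numbers 1 and 2 and 45.1% and 47.1% in numbers 3 and 4. Orc1, the largest subunit of the origin recognition complex, showed the same division, at 33.6, 29.2, 188 and 213 CPM in the 4 KO libraries against 19.5 to 21.6 in WT MEP. It was picked out after its values were seen as well as by the list of licensing genes.

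Ccne1 was called against both other KO populations, at 2.85 above LT-HSC KO (SE 0.806, adjusted p = 0.0214) and at 4.09 above CMP/GMP KO (SE 0.853, adjusted p = 0.00529), where its 4 libraries held 3.41, 5.82, 3.27 and 16.1 CPM. It was the 1 member called higher in MEP KO than in CMP/GMP KO, against 5.49% of genes, and the other 9 stood between -0.54 (Mcm6) and 0.20 (Cdt1). DESeq2 called 1 member and 22% of genes there, and limma-voom 6 members and 62.7% of genes. On library totals the all-gene median of this contrast moved from -0.19 to -0.37 and the share of calls that were higher from 54.1% to 41.4%. Without MEP KO 3 and 4 the differences for Ccne1 were 0.51 (adjusted p = 0.799) and 1.74 (adjusted p = 0.362). Those libraries differ from numbers 1 and 2 in more than Ccne1: they held less granulocyte-macrophage marker RNA (69.7 and 81.4 CPM against 1312 and 3025), less stem-cell marker RNA (47.7 and 39.7 CPM against 260.1 and 176) and less Dnmt3a (1.91 and 1.44 CPM against 11.4 and 43.8). Numbers 3 and 4 carry Xist and numbers 1 and 2 Y transcripts, and the part of these differences in the result was not tested beyond leaving them out.

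**Figure D3:**
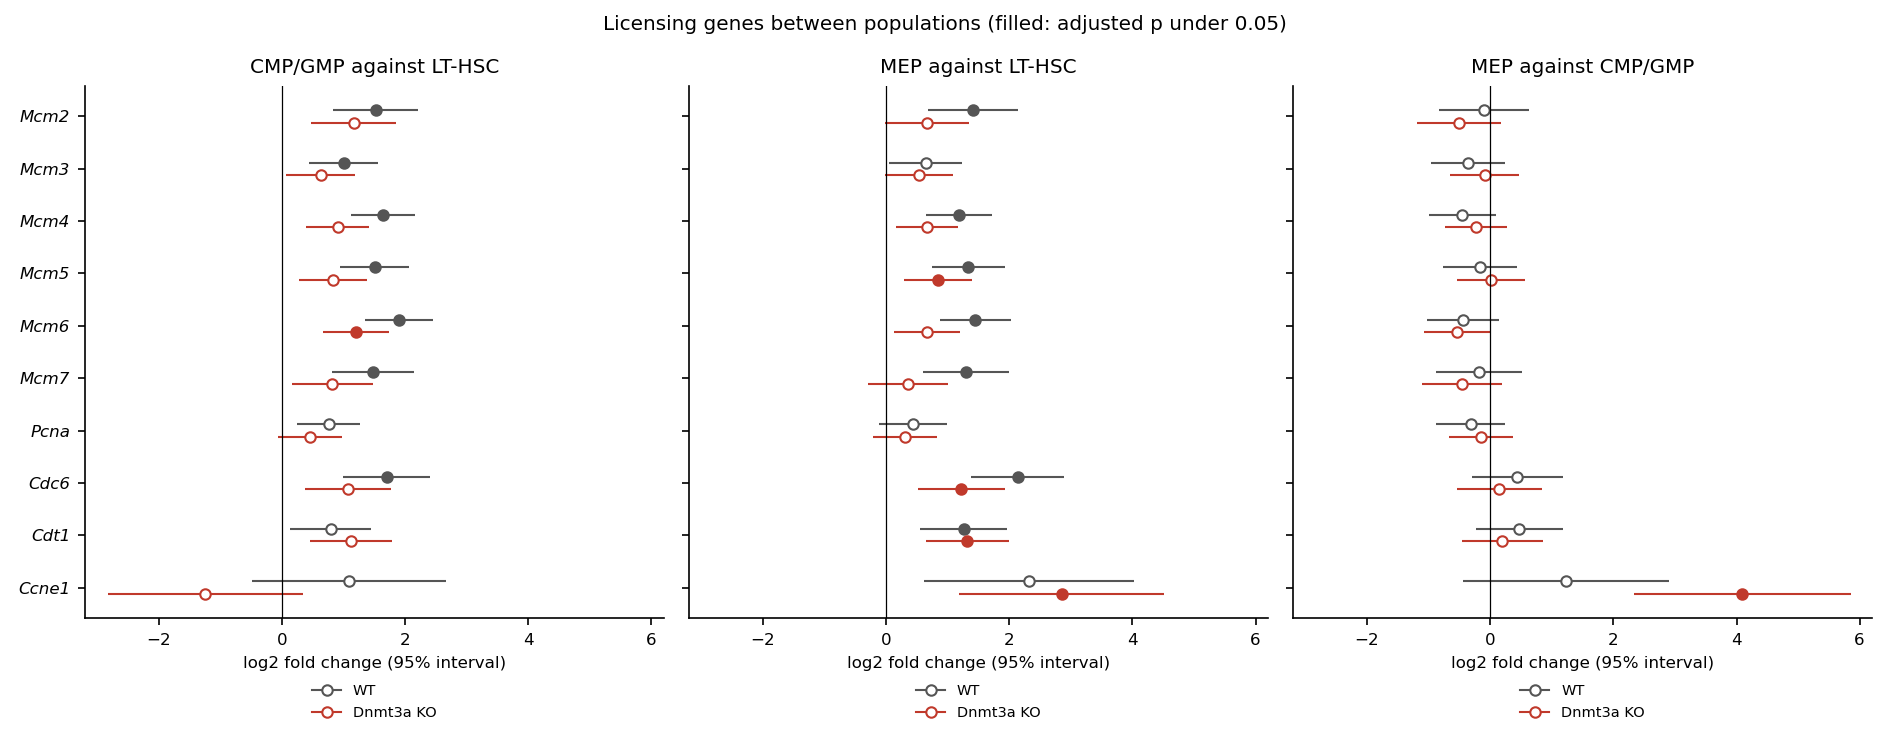
Differences between populations for each licensing gene, as log2 fold change with 95% interval from edgeR, in WT (grey) and Dnmt3a KO (red) cells, filled where the adjusted p is under 0.05. In WT cells 7 genes are filled for CMP/GMP and 7 for MEP against LT-HSC, and in the contrast of MEP with CMP/GMP the only filled point is Ccne1 in KO cells.

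In the edgeR test, loss of Dnmt3a gave no called change of a licensing gene in any sorted population. Dnmt3a itself was not called by the same fits either. Its differences were -0.89 in LT-HSC, -1.355 in CMP/GMP (edgeR, adjusted p = 0.298) and -1.38 in MEP (adjusted p = 0.575). The libraries labelled LT-HSC KO 3 and MEP KO 2 held Dnmt3a in the WT range, so these fits have limited power to show an effect of its loss. In LT-HSC, 9 of 10 members had a positive estimate and the median was 0.41 against 0.00 over all genes. By edgeR, DESeq2 or limma-voom 0 of 10 were called, and in edgeR 0 had an unadjusted p under 0.05, against 1.18% of genes. Of all 12800 genes edgeR called 0%, DESeq2 0.0547% and limma-voom 0%. Mcm5 came closest. It held 194, 251, 133 and 199.6 CPM in WT and 324, 245.5, 245.5 and 348 in KO, which overlap in the WT library at 251, and differed by 0.59 (95% interval -0.02 to 1.20, adjusted p = 1). Ccne1 held 0.688 to 10.7 CPM in WT and 6.22, 28.5, 6.95 and 26.8 in KO, a difference of 1.80 with a 95% interval of -0.50 to 4.11. Mcm2 ranged from 67.9 to 306 CPM among the KO libraries, both below and above all 4 WT libraries. A different share of cycling cells and a different amount of RNA per cell cannot be told apart in these bulk libraries, here or in any other contrast.

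In CMP/GMP 9 of 10 members had a negative estimate, with a median of -0.19 against 0.01 over all genes. None was called by edgeR, DESeq2 or limma-voom, which called 0%, 1.21% and 3.6% of 13205 genes. The 1 member with an unadjusted p under 0.05 in edgeR, against 9.06% of genes, was Mcm6. Mcm6 stood at 909 to 1189 CPM in WT and 822 to 864 in KO. Its difference was -0.30 (SE 0.124, 95% interval -0.57 to -0.03, adjusted p = 0.499). For 2 of 10 members, Mcm6 and Mcm7 (597 to 782 CPM in WT and 526 to 596 in KO), all KO libraries lay below all WT libraries, against 2.3% of genes. Mcm2 (-0.33), Mcm4 (-0.31) and Mcm7 (-0.25) differed by similar amounts with intervals that included 0, while Pcna (-0.01) stood at 327 ± 37.8 CPM in WT and 322 ± 98.6 in KO.

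In MEP 0 of 10 members were called by edgeR and by DESeq2, and limma-voom called 4. In edgeR 2 had an unadjusted p under 0.05, against 13% of genes. Of 12323 genes edgeR called 0%, DESeq2 4.55% and limma-voom 63.3%. Mcm2 stood at 490.2, 501 and 476 CPM in WT and at 401, 177, 264.5 and 329 in KO, a difference of -0.76 (SE 0.321, adjusted p = 0.362). It was the 1 member of 10 with every KO library below every WT library, against 6.44% of genes. Ccne1 differed by 2.28 (SE 0.851, adjusted p = 0.333), from the division among KO libraries described for it, and by -0.04 without numbers 3 and 4. Without MEP KO 1 both were called (Mcm2 -0.95, adjusted p = 0.0314, and Ccne1 2.62, adjusted p = 0.0342), and the calls over all genes went from 0 to 2882. limma-voom called Mcm2 (-0.78), Mcm7 (-0.54) and Cdc6 (-0.73) lower and Ccne1 (3.03) higher. Mcm3 (0.15, SE 0.319), Mcm5 (0.06, SE 0.373) and Pcna (0.13, SE 0.314) had positive estimates smaller than their SE. Whether the helicase subunits share a direction in MEP cannot be told from these values.

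The F-test of whether the Dnmt3a effect differed between LT-HSC, CMP/GMP and MEP called 0 of 10 members (edgeR, also 0 with DESeq2 and limma-voom), against 0.0186% of genes with edgeR, 0.806% with DESeq2 and 25.4% with limma-voom. In edgeR the lowest unadjusted p was that of Ccne1 (0.0391, adjusted p = 0.398), followed by Mcm6 (0.0916, adjusted p = 0.489). Ccne1 was the 1 member under 0.05, against 12% of genes.

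**Figure D4:**
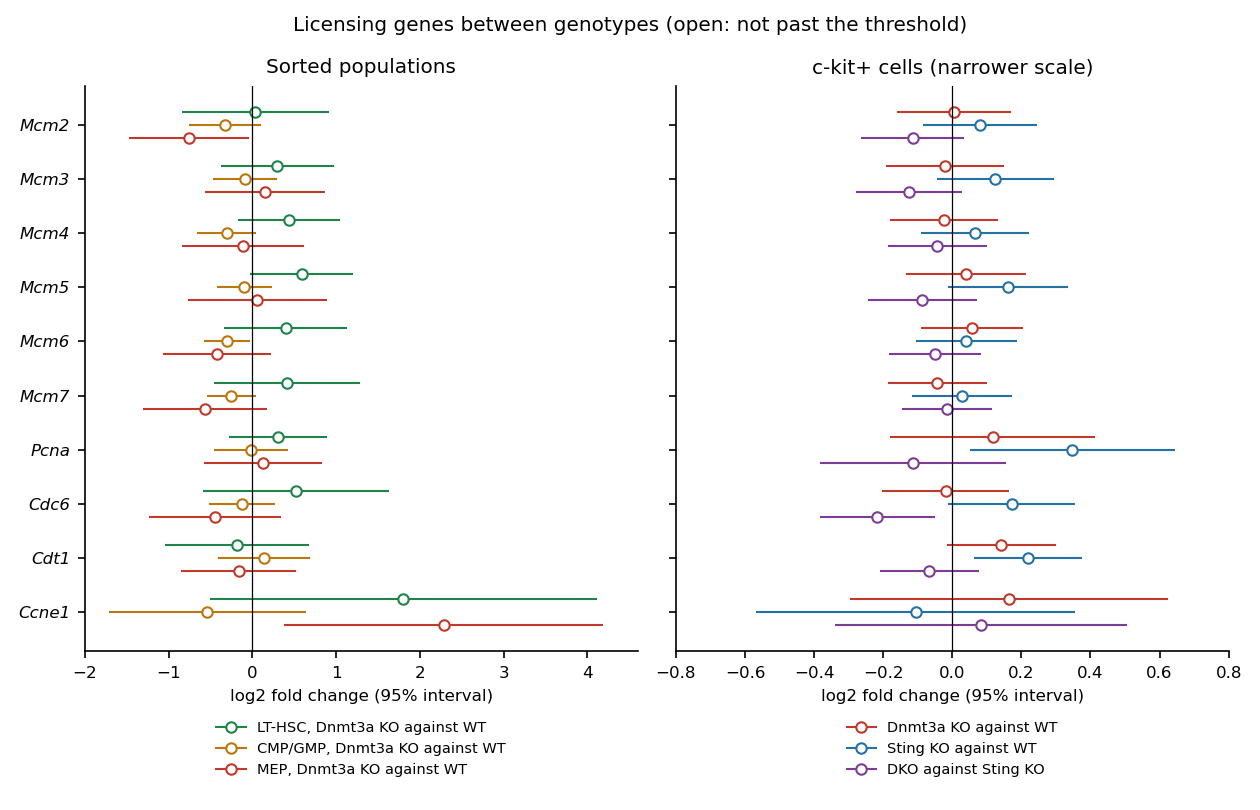
Differences between genotypes for each licensing gene, as log2 fold change with 95% interval from edgeR, in the sorted populations (left) and in c-kit+ cells (right, on a narrower scale). No point passes the threshold, and the intervals are widest for Ccne1 in the sorted cells.

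In c-kit+ cells the libraries lay close together and the licensing genes stood at similar levels in each genotype. Within a genotype, pairs of libraries correlated at 0.976 to 0.993 over genes, near the values of the close pairs among sorted libraries. The labels do not tell whether they come from separate animals, so the narrow spread in c-kit+ cells may be technical. The MCM geometric mean was 459.9 ± 19.4 CPM (SD, n = 2) in WT, 455.5 ± 19.5 (n = 2) in Dnmt3a KO, 492 ± 12.8 (n = 2) in Sting KO and 462 ± 12.3 (n = 3) in DKO. Ccne1, at 55.3 ± 4.62 CPM in WT, was higher per MCM transcript than in WT sorted cells (9.36 to 15.3% over the 9 libraries). That level cannot be set against the sorted cells by a test, since the fraction also holds mature cells. Neutrophil markers (6 genes) summed to 5781 to 29970 CPM in c-kit+ libraries and to at most 22.1 in sorted ones. The proliferation gene Mki67 stood at 1302 to 1808 CPM against 59.9 to 439.5. Not all mitotic genes differed in this way: Cdk1 had group means of 154 to 170 CPM in c-kit+ cells and 148 to 276 in the sorted groups.

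For Dnmt3a loss with Sting intact no member was called. Both WT libraries carry Y transcripts and both Dnmt3a KO libraries Xist, so genotype and sex cannot be told apart in this contrast. The estimates ran from -0.04 (Mcm7) to 0.16 (Ccne1), with a median of 0.02. None of the 10 was called, where edgeR called 0.568% of genes, DESeq2 4.04% and limma-voom 5.77%. In edgeR 0 members had an unadjusted p under 0.05, against 16.3% of genes. With a term for sex, which only the DKO libraries inform since they alone include both sexes, edgeR called 0 genes. Pcna and Cdt1, 2 of 10 members, lay higher in both KO libraries than in both WT libraries, against 23.8% of genes. The 95% intervals of the 6 MCM genes lay within -0.19 to 0.21. The interval was widest for Ccne1, at -0.30 to 0.63.

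Sting loss alone gave small positive estimates for 9 of 10 members, with a median of 0.10. Cdt1 stood at 96.7 and 98.2 CPM in WT and 113 and 116 in Sting KO (0.22, SE 0.0702, adjusted p = 0.241), and Pcna at 307 and 322 in WT and 384 and 423 in Sting KO (0.35, SE 0.133, adjusted p = 0.348). Neither passed the edgeR test, which called 0 of 10 against 0.774% of genes. Both had an unadjusted p under 0.05, 2 of 10 members against 11.5% of genes. DESeq2 and limma-voom called 0 members and 2.88% and 1.55% of genes. Pcna was called by edgeR when the filter on low counts was dropped (0.34, adjusted p = 0.0337). In 7 of 10 members both Sting KO libraries lay above both WT libraries, against 22.8% of all genes. Macrophage markers (6 genes) moved in the same contrast, from 1021 to 1023 CPM in WT to 283 to 290 in Sting KO. Of these 6, 4 were called lower and none was at 0 in any c-kit+ library. Their sums were also below WT in Dnmt3a KO (466 to 475) and DKO (336 to 465). In Sting KO granulocyte-macrophage markers summed to 17700 to 20700 CPM against 13540 to 14210 in WT. Neutrophil markers summed to 10890 to 11050 against 5781 to 9960, and MEP markers to 1734 to 1860 against 2301 to 2344. The part of these cell-type markers in the Sting KO values was not tested.

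The DKO can be read against either single knockout. Against Sting KO, Cdc6 was at 132, 129 and 135 CPM where Sting KO held 155 and 156 (-0.22, SE 0.0742, adjusted p = 0.379). No member was called (edgeR, DESeq2 and limma-voom), and the tools called 0%, 0.842% and 0% of genes. In edgeR 1 member had an unadjusted p under 0.05, against 11.6% of genes. In 7 of 10 members all DKO libraries lay below both Sting KO libraries, against 14.6% of genes. This contrast and the one with WT share the Sting KO libraries. Against Dnmt3a KO the members stood between -0.19 (Ccne1) and 0.12 (Pcna), with 0 of 10 called by the 3 tools and 0 at an unadjusted p under 0.05, against 0.156% of genes with edgeR, 0.618% with DESeq2 and 0.175% with limma-voom. For the interaction, the effect of Dnmt3a loss with Sting minus its effect without, estimates ran from -0.03 (Mcm7) to 0.23 (Pcna). Again 0 were called by the 3 tools, against 0.15%, 1.24% and 0.368% of genes, and 0 had an unadjusted p under 0.05. The edgeR shares of all genes at an unadjusted p under 0.05 were 7.91% for DKO against Dnmt3a KO and 7.56% for the interaction.

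The MCM genes varied together across the 32 libraries. The 15 pairs of subunits had Pearson's r of 0.752 to 0.926 on log2(CPM + 1), and 0.488 to 0.85 after each group's mean was taken out. The median r with the subunits was 0.726 for Cdc6, 0.64 for Pcna and 0.63 for Cdt1, and within groups it was 0.141, 0.288 and 0.509. For Ccne1 the median r was 0.23, and 0.07 within groups. These values describe libraries that share cell type and scaling, and have no test.

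Of 10625 other genes averaging 5 CPM or more, those most like the mean of the MCM genes over the 32 libraries were Gart, a purine synthesis enzyme (r = 0.886), Rpn2, a subunit of the oligosaccharyltransferase (0.872), Siglecf, a receptor for sialic acid (0.869), Rrm1, the large subunit of ribonucleotide reductase (0.867), Rbbp4, a histone chaperone (0.857), Gatm, an enzyme of creatine synthesis (0.854), Fen1, the flap endonuclease of lagging-strand synthesis (0.852), and Slc43a3, a purine transporter (0.85). With group means removed the values were 0.843 for Rrm1, 0.822 for Fen1, 0.606 for Gart and 0.491 for Siglecf. The median gene had r = 0.085, and 0.311% of genes exceeded 0.8. Among mitotic genes read for reference, r ran from -0.107 (Ccna2) to 0.619 (Ccnb1). Aurka stood at 0.585, Plk1 at 0.558, Top2a at 0.32 and Mki67, the proliferation marker, at 0.155.

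**Figure D5:**
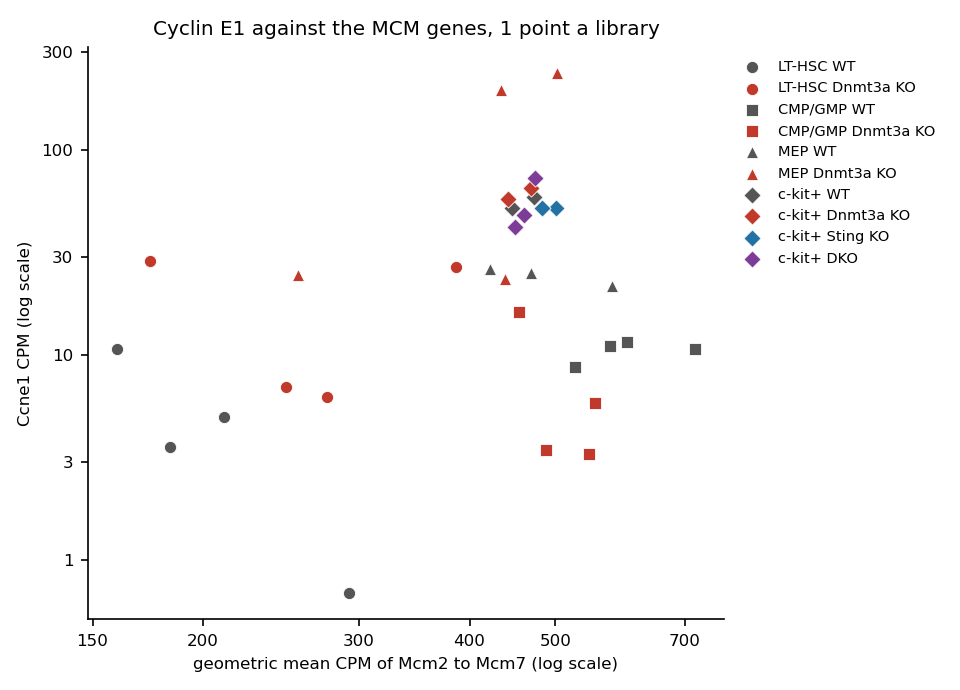
Ccne1 level against the geometric mean of the 6 MCM genes, both in CPM on log axes, with each point a library and the colour its group. MEP Dnmt3a KO 3 and 4 lie at 195.7 and 236 CPM of Ccne1, apart from the other 30 libraries, with MCM means inside the range of the other sorted progenitors.

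The other genes of the pathway were read in 6 lists of 99 genes in all, with edgeR alone. Over all genes it called 1.7% higher in WT CMP/GMP and 2.58% in WT MEP than in LT-HSC. It called 0.818% and 5.74% higher in the same contrasts of KO cells, and 5.49% in KO MEP against KO CMP/GMP. At an unadjusted p under 0.05 edgeR had 21.9% and 24.5% of all genes in those WT contrasts. In KO cells it had 19.9% in CMP/GMP against LT-HSC and 29.6% in MEP against CMP/GMP. Between WT MEP and WT CMP/GMP, where it called 1.41% of genes in either direction, Orc5 (1.39) and E2f4 (1.48) were higher in MEP and Cdkn1a (-2.23) was lower, 3 of the 99. Of 21 other licensing and origin genes, 1 was called higher in WT CMP/GMP than in LT-HSC, Wdhd1, which links polymerase alpha to the helicase (1.71, adjusted p = 0.0135), with a list median of 1.12. In WT MEP 3 were called higher, Orc5 (1.46), Orc2 (1.81) and Wdhd1 (1.61), with a median of 1.01. In KO CMP/GMP edgeR called none of the 21, 7 had an unadjusted p under 0.05, and the 2 most abundant, Cdk2 and Orc3, stood at 0.49 and 0.46. In KO MEP against LT-HSC 6 were called higher, led by Orc2 (2.01, adjusted p = 0.00210), Orc5 (1.41) and Wdhd1 (1.49), and Orc1 among them at 2.12. Against KO CMP/GMP Orc1 (2.28, adjusted p = 0.0200) and Orc5 (0.92) were called higher.

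Replisome genes act at the fork that the helicase opens, and enzymes of nucleotide supply feed it. Of 26 replisome genes, 6 were called higher in WT CMP/GMP than in LT-HSC, led by Rfc4 and Rfc2, subunits of the loader that puts PCNA on DNA (1.99 and 1.09), and Rpa1, which coats single strands (1.08). In WT MEP 5 were called higher, led by Rfc4 (2.29), Timeless (1.94) and Fen1 (1.73). In KO MEP 4 were called higher, led by Tipin (1.33), Timeless (1.54) and Rpa2 (0.92). In KO CMP/GMP edgeR called none, with 8 at an unadjusted p under 0.05 (Rfc2 0.89, Tipin 0.73), and between KO MEP and KO CMP/GMP none, with 5 (Rfc2 -0.62, Tipin 0.60). Of 17 nucleotide and E2F target genes, 6 were called higher in WT CMP/GMP, led by Rrm1 (1.78, adjusted p = 0.000325), Rrm2 (2.33, adjusted p = 0.00103) and Uhrf1 (1.53), and 3 in WT MEP, Rrm1 (1.84), Dut (1.67) and Rrm2 (2.40). In KO cells 3 were called in CMP/GMP, Rrm2 (1.84), Dut (0.94) and Rrm1 (0.95), and 4 in MEP, led by Dut (1.41), Rrm2 (1.61) and Rrm1 (0.90). Between KO MEP and KO CMP/GMP 1 was called lower, Tyms, thymidylate synthase (-1.46).

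Regulators were read in separate lists of transcription factors and of brakes. Of 14 E2F and Rb genes, 1 was called higher in WT CMP/GMP, Tfdp1, the E2F partner (1.02, adjusted p = 0.0495), and 2 in WT MEP, the repressor E2Fs E2f4 (1.5) and E2f8 (1.49). In KO CMP/GMP edgeR called none, with 1 at an unadjusted p under 0.05 (Tfdp1 0.23, Rbl1 0.21). In KO MEP E2f4 (1.01) and E2f8 (1.26) were higher than in LT-HSC KO, and E2f4 (1.09) and Rb1 (2.21) higher than in KO CMP/GMP. Of 11 brakes on licensing, Dtl, which targets CDT1 for degradation (1.46, adjusted p = 0.00968), was called higher in WT CMP/GMP. In WT MEP Ddb1 (1.04) was called higher and Cdkn1a, the inhibitor p21, lower (-2.46, adjusted p = 0.0100), at 45.1 ± 28.7 CPM against 251 ± 175. In KO MEP Cdkn1a was lower (-2.41) and Gmnn, the CDT1 inhibitor geminin, higher (1.30). Cdkn1c, the inhibitor p57, was called lower there too: it had 0 reads in the 4 MEP KO libraries together and a mean of 4.96 CPM in LT-HSC KO, at least 129-fold lower against a floor of 3 reads over the group. In KO CMP/GMP edgeR called no brake, with 4 at an unadjusted p under 0.05 (Ddb1 0.21, Cul4a -0.24), and against it KO MEP had Cul4b higher (2.0) and Cdkn1a lower (-2.16).

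Mitotic genes were taken for reference. Of 11, edgeR called none against LT-HSC in WT CMP/GMP (4 with an unadjusted p under 0.05, Top2a 0.62, Mki67 -0.16), WT MEP (3, Top2a -0.46, Mki67 -0.06) or KO CMP/GMP (0, Top2a -0.22, Mki67 -0.58). Aurka was called higher in KO MEP (1.15), and Ccnb1 lower in KO MEP than in KO CMP/GMP (-1.33). Mki67 stood at 162 ± 95.5 CPM in WT LT-HSC, 145 ± 64.9 in WT CMP/GMP and 153 ± 34.8 in WT MEP. Between genotypes edgeR called none of the 99 genes in the sorted cells. Of the 99, 3 had an unadjusted p under 0.05 in LT-HSC, 13 in CMP/GMP and 11 in MEP. The shares of all genes under 0.05 were 1.18%, 9.06% and 13%. In c-kit+ cells the 1 call by edgeR among the 99 was Rb1, lower in Sting KO (-0.65, adjusted p = 0.0456), against 0.774% of all genes.

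Neighbouring genes were read because reads can be shared with them. Prkdc, which starts 466 bases from Mcm4 on the other strand, had r = 0.589 with it over the 32 libraries, and ran from 31.3 CPM in WT LT-HSC to 113 in c-kit+ Dnmt3a KO. Cops6, which overlaps Mcm7, stood at 198 CPM in WT LT-HSC, 303 in WT CMP/GMP and 321 in WT MEP but at 66.4 to 84.7 in c-kit+ cells, with r = 0.196. Ap4m1, whose start lies 420 bases from that of Mcm7, stood at 15.7 to 36.2 CPM, and the 3 microRNA genes within Mcm7 at 1.55 CPM or less.

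Positions are those of GENCODE vM21 (GRCm38). The MCM genes lie at chr6:88883474-88898780 (Mcm2), chr1:20802968-20820312 (Mcm3), chr16:15623897-15637400 (Mcm4), chr8:75109569-75128439 (Mcm5), chr1:128331590-128359664 (Mcm6) and chr5:138164583-138172422 (Mcm7). The others lie at chr2:132249162-132253314 (Pcna), chr11:98907801-98923940 (Cdc6), chr8:122568015-122573554 (Cdt1) and chr7:38097984-38107534 (Ccne1). Per kilobase of exon, counting all annotated exons of a gene, the order of the genes differed between populations. In WT LT-HSC Pcna (80.7 CPM per kb) and Mcm3 (78.1) led, in WT CMP/GMP Mcm6 (224) and Mcm3 (156), in WT MEP Mcm6 (162) and Mcm7 (132), and in WT c-kit+ cells Mcm6 (139) and Pcna (131). Ccne1 was last in each of these WT groups, from 1.87 CPM per kb in LT-HSC to 20.8 in c-kit+ cells, and Cdc6 was next to last, at 5.84 and 26.1.

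Ordered by mean over the 10 groups, most neighbours overlapped. WT LT-HSC was lowest for 9 members, and LT-HSC KO for Cdt1 (74.1 ± 39.3 CPM, with WT LT-HSC next at 84.4 ± 18.02). At the top stood WT CMP/GMP for the 6 MCM genes, c-kit+ Sting KO for Pcna (404 ± 27.6) and Cdc6 (155 ± 0.371), WT MEP for Cdt1 (199.6 ± 23.5) and MEP KO for Ccne1 (119.9 ± 112). For Mcm6 the top 2 groups, WT CMP/GMP (1046 ± 116) and KO CMP/GMP (841 ± 17.6), did not overlap, while for Mcm3 no pair of neighbours was separated. These orders mix populations that were prepared as separate sorts and serve as a description.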

How the data were processed

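The submitters' processing notes name Trim Galore 0.6.7, featureCounts 2.0.1, DESeq2 1.34.0 and the build mm10. The authors deposited raw read counts per gene symbol. Their annotation, strand setting and handling of reads with several matches are unstated in the sources used here. Of the 40 gene columns, 32 were matched to a library by name and 8 were not used, because all carry names of short-term stem cell WT libraries, each more than once; short-term stem cells were therefore left out.

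Counts were tested in R 4.3.3 with edgeR 4.0.16 (quasi-likelihood test, TMM, filterByExpr with minimum count 10 and minimum total 15), with Benjamini-Hochberg adjustment over all genes tested. Called means an adjusted p under 0.05. For genotypes, LT-HSC, CMP/GMP and MEP were each fitted separately, the 23 sorted libraries together for populations, and the 9 c-kit+ libraries together, so that groups of 2 share an estimate of the spread. The procedure was run on simulated counts for Dnmt3a KO against WT in LT-HSC and in c-kit+ cells. WT CMP/GMP against LT-HSC was simulated as well, and the other contrasts were not. Levels are CPM, and correlations use log2(CPM + 1).

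The members and gene lists were chosen with earlier results of these data known. Named are the 10 members, Dnmt3a and Tmem173, per list up to 3 called genes with the smallest adjusted p (or the 2 most abundant where none was called), the 8 genes most like the MCM mean, and overlapping or divergent neighbours. Alternatives were DESeq2 1.42.0, limma 3.58.1 (voom with quality weights), RLE factors, library totals, no filter, only the groups compared, the replicate number as a block, a term for sex and leaving out each library. Summing close pairs and leaving out pairs of libraries were added after seeing the data.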

Additional observations from a re-analysis of the deposited data

Results flagged for a closer look

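In 3 of the 50 sets of 4 libraries checked (5 groups of 4 for each of the 10 genes), 1 library stood far from the other 3, with a gap to its nearest neighbour above Dixon's critical value; chance gives about 1 in 20. Mcm5 stood at 695.6 CPM in CMP/GMP WT 4, with the other WT libraries at 487.5 to 515.4. Mcm6 stood at 373.2 CPM in LT-HSC WT 2, with the others at 247.6 to 253.7. Pcna stood at 424.8 CPM in MEP Dnmt3a KO 1, with the others at 238.1 to 246.7.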

How the results depend on the processing

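The 20 called changes of members kept their sign in all 664 values from alternatives, and 60 of those values missed the threshold. The 120 uncalled changes gave 2666 values, of which 89 changed sign and 51 passed. With limma-voom the members called were 4 in MEP Dnmt3a KO against WT, 4 in WT MEP against CMP/GMP, 6 in KO CMP/GMP against LT-HSC, 7 in KO MEP against LT-HSC and 6 in KO MEP against CMP/GMP, and with DESeq2 6 in KO CMP/GMP against LT-HSC. With no filter 1 was called in Sting KO. With only the groups compared, 1 was called in WT MEP against CMP/GMP (Ccne1), 0 in KO CMP/GMP against LT-HSC and 0 in KO MEP against LT-HSC, where fewer samples enter. KO MEP against LT-HSC gave 1 on library totals, 2 with close pairs summed and 1 without MEP KO 3 and 4, which left 0 in KO MEP against CMP/GMP. Leaving out each library gave 0 to 2 members in MEP KO against WT, 5 to 8 in WT CMP/GMP and 3 to 7 in WT MEP against LT-HSC, 0 to 5 in KO CMP/GMP and 1 to 6 in KO MEP against LT-HSC, and 1 to 1 in KO MEP against CMP/GMP. Signs turned for Ccne1 in MEP KO against WT without MEP KO 3 and 4 (-0.0447), for Ccne1 in DKO against Dnmt3a KO with a term for sex (0.23), and for Mcm7 (-0.0143) and Pcna (-0.0259) in KO MEP against LT-HSC on library totals. Of same-numbered pairs of libraries, 0 of 23 between genotypes and 3 of 22 between populations had a correlation of deviations over 0.1. The highest were LT-HSC with MEP in KO 1 (0.216) and KO 2 (0.16). Between genotypes 9 of 22 libraries correlated best with their own number. Numbers 1 and 2 of the sorted groups carry Y transcripts and 3 and 4 Xist, except CMP/GMP WT 4, which carries Y transcripts. Whether same-numbered libraries of a genotype share an animal is not stated, and the main contrasts took libraries as independent. With the replicate block, KO CMP/GMP against LT-HSC gave 3 members. The cause of these changes was not tested except where stated. RLE factors moved 33 of 100 group levels by over 1 SD (ratios 0.929 to 1.07) and library totals 14 (0.84 to 1.12). The fewest reads behind a level were 24 (Ccne1, LT-HSC WT 2), and the shallowest library held 3.44 M reads (MEP KO 2).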
